A study of Mus musculus with 9 samples.

Results

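The small nucleolar RNAs (snoRNAs) and small Cajal body RNAs were taken from the deposited probe sets. Any probe sets of the array outside these could not be examined. The rule took every probe set that names 1 gene with a symbol starting with Snora, Snord or Scarna. The rule found 54 genes on 56 probe sets among the 10476 deposited probe sets: 32 box C/D RNAs (Snord), 19 box H/ACA RNAs (Snora, 20 probe sets) and 3 Cajal body RNAs (Scarna, 4 probe sets). Snora33 and Scarna17 have 2 probe sets each. A further 38 probe sets carry such a symbol beside another gene's and are not members.

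Box C/D snoRNAs pair with ribosomal RNA and direct the methylation of riboses, whereas box H/ACA snoRNAs direct the conversion of uridine to pseudouridine. Small Cajal body RNAs guide the same modifications on the RNAs of the spliceosome. Most of these RNAs are cut out of the introns of host genes, many of which encode ribosomal proteins, nucleolar proteins or long noncoding RNAs, and each is held in a particle with 4 core proteins.

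The arrays compare E14 cells, a mouse embryonic stem cell line kept undifferentiated with serum and LIF, after 26 h with the solvent DMSO alone or with 5-ITu at either 0.1 μM or 1.0 μM. The compound (5-iodotubercidin) is an adenosine analogue that inhibits the mitotic kinase Haspin. Each condition had 3 biological replicates, hybridised to 1 array each, and nothing in the labels sets the 3 groups apart except the compound and its dose. RNA was purified on silica columns, which as background retain short RNA less well than messenger RNA, and samples with a RIN above 9 were used. E14 is 1 cell line, so the comparisons hold for these cells only.

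All values are log2 signals, and differences are log2 differences tested with limma over the 9911 probe sets above the background threshold of the methods (a log2 signal of 8.46) on at least 3 of the 9 arrays. A member is said to have risen or fallen where the p-value adjusted over all tested probe sets was under 0.05. Of the 56 members' probe sets, 53 entered the test (31 Snord, 18 Snora and 4 Scarna) and 49 of these were above background on all 9 arrays. Snord1b (above background on 1 array), Snora15 (on 2) and 1 of the probe sets of Snora33 (on 1) were not tested. The tested members had a median signal of 10.23 (8.56 to 12.58), against 9.81 over all tested probe sets. The 11 tested markers of embryonic stem cells had a median log2 signal of 11.90 in the DMSO group, 11.91 in the 0.1 μM group and 11.82 in the 1.0 μM group, with 2 of them passing as higher and 2 as lower at 1.0 μM. Of the 4 macrophage markers 2 were tested (Cd68 and Laptm5), and both passed as higher at both doses. Of the 10 fibroblast markers 3 were tested (Thy1, Tagln and Cald1, median 8.59 in DMSO, 8.86 at 0.1 μM and 8.44 at 1.0 μM; 2 passed as higher at 0.1 μM and 1 as lower at 1.0 μM), and of the 12 markers of endoderm, mesoderm and neural cells none was. The part of any such cells in the results below was not tested, and in bulk RNA fewer cells of a type and less RNA per cell cannot be told apart.

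The brightest members were Snora33 (12.58), Snord49b (12.34), Snora21 (12.01), Snord16a (11.82) and Scarna17 (11.77), and the dimmest tested ones were Snord37 (8.56), Snora31 (8.64), Snord88c (8.74), Snord15a (8.94) and Snord110 (8.96). These are mean signals over the 9 arrays. Probe sets differ in how strongly they respond, so this is an order of brightness and not of RNA abundance.

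At 1.0 μM, 7 members rose and 1 fell relative to DMSO. Those that rose were 4 box C/D RNAs, Snord110 (1.85-fold), Snord11 (1.66-fold), Snord52 (1.23-fold) and Snord23 (1.19-fold), and 3 box H/ACA RNAs, Snora78 (1.61-fold), Snora61 (1.43-fold) and Snora69 (1.35-fold). Snord15a fell by 0.33 (standard error 0.10, adjusted p in limma = 0.031). The 7 are 13.2% of the 53 tested members, beside 13.4% of all tested probe sets that rose at this dose. The 1 that fell is 1.89% of the members, beside 14.3% of all tested probe sets. The share that rose is thus at the level of all genes, and the lower share that fell is a description of 53 probe sets with wider errors than most.

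**Figure D1:**
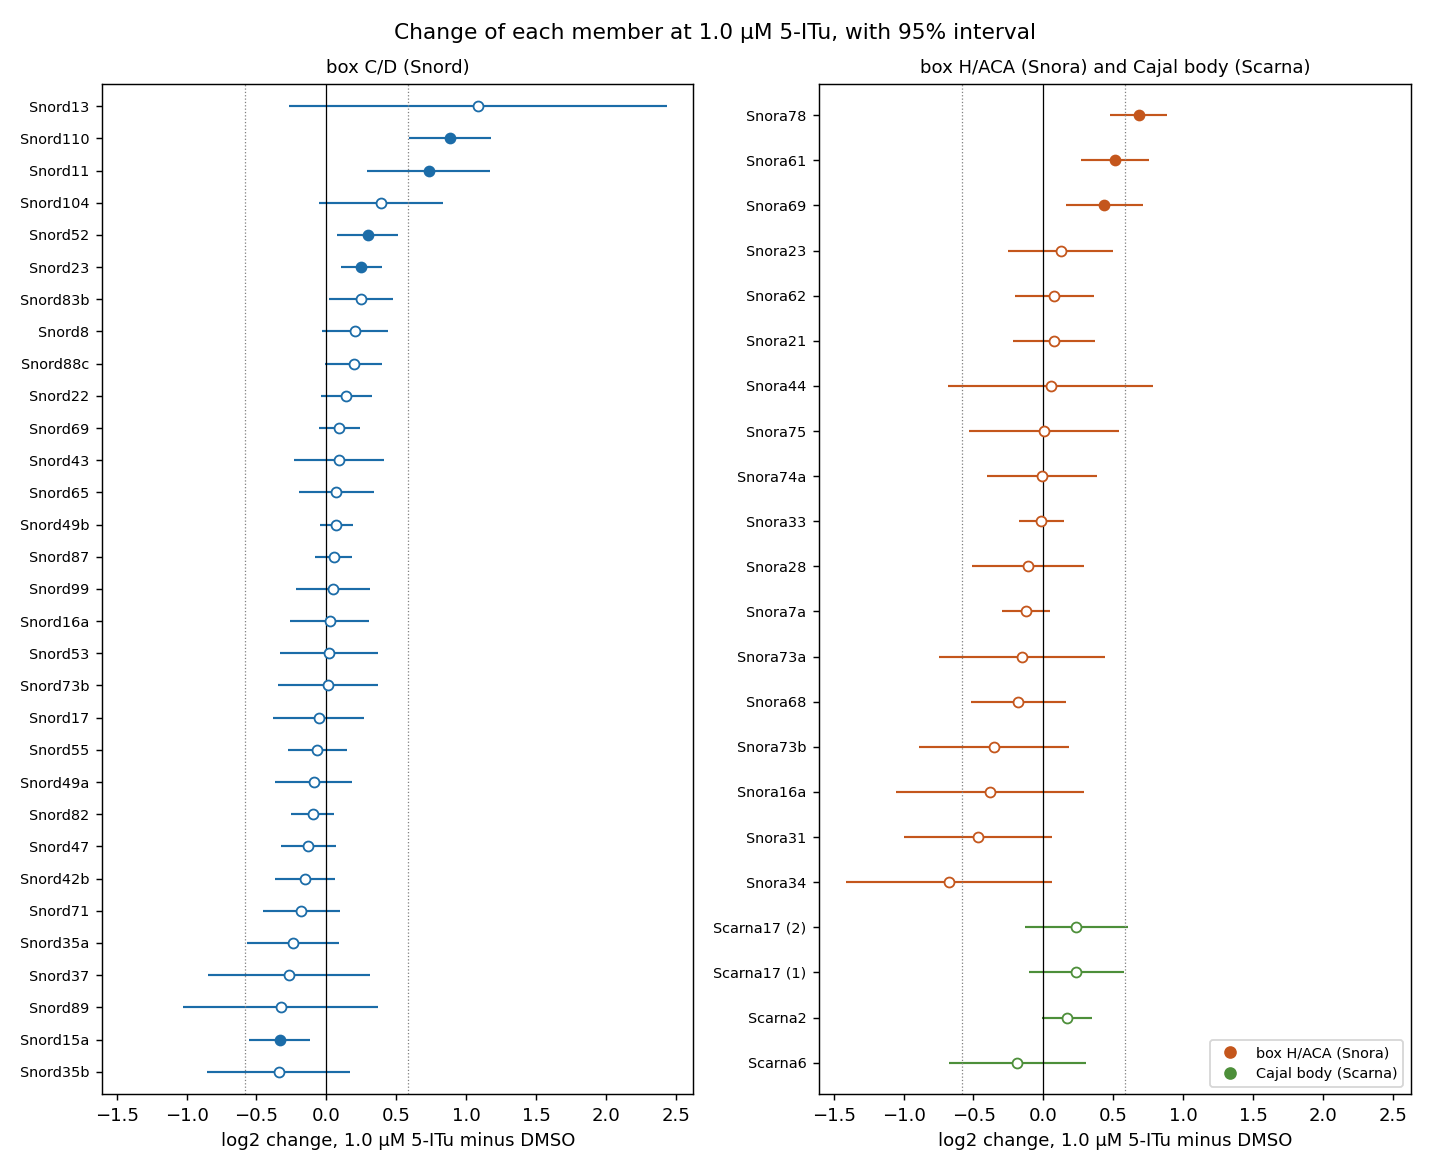
The change of each of the 53 tested probe sets at 1.0 μM 5-ITu relative to DMSO (x axis, log2; points are limma estimates from 3 arrays a group and bars are 95% intervals), box C/D at the left, box H/ACA and Cajal body RNAs at the right. Filled points passed at an adjusted p under 0.05, and dotted lines mark 1.5-fold; 7 filled points lie right of 0 and that of Snord15a lies left of it, while the widest bar belongs to Snord13.

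Snora78, an H/ACA RNA that RefSeq places inside the spans of both Rps2 and the noncoding gene Snhg9, gave the clearest separation. Its signals were 10.22, 10.11 and 10.22 in DMSO, 10.09, 10.12 and 9.98 at 0.1 μM, and 10.84, 10.68 and 11.08 at 1.0 μM. The 3 arrays at 1.0 μM all lay above the 6 others. The change against DMSO was 0.68 (standard error 0.09, adjusted p = 0.000797) and that against 0.1 μM was 0.80 (adjusted p = 0.000367 from limma).

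Snord110, a C/D RNA in an intron-bearing host that itself encodes a core protein of C/D particles, Nop56, had the largest change that passed at 1.0 μM against DMSO. It measured 8.75, 8.30 and 8.62 in DMSO, 8.89, 8.77 and 8.96 at 0.1 μM, and 9.49, 9.20 and 9.65 at 1.0 μM. Its groups did not overlap and stood in the order of the dose. The change at 1.0 μM was 0.89 (standard error 0.13, adjusted p = 0.00138), and that at 0.1 μM was 0.32 (standard error 0.13), which did not pass (adjusted p = 0.172 from limma) and was 0.19 without DMSO replicate 2. One DMSO array read it below the background threshold.

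Snora61 is 1 of 4 members inside the noncoding gene Snhg12. Its signals were 8.81, 9.18 and 8.74 in DMSO, 8.92, 8.86 and 8.85 at 0.1 μM, and 9.40, 9.30 and 9.57 at 1.0 μM. The 1.0 μM arrays were above all others, and the change against DMSO was 0.51 (standard error 0.11, adjusted p = 0.00777 from limma). Snora78, Snord110 and Snora61 are the 3 members that passed at 1.0 μM under every alternative that included them (19, 18 and 19 alternatives). Snord110 was not in the fit limited to probe sets above background on all 9 arrays.

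The other 5 calls at 1.0 μM rested on smaller or more variable differences. Snord11, which lies in Nop58, had 10.05, 10.21 and 10.52 in DMSO, 10.54, 10.50 and 10.45 at 0.1 μM, and 10.62, 10.86 and 11.50 at 1.0 μM. Its change was 0.73 (standard error 0.20, adjusted p = 0.0214 from limma), with 1 array of the 1.0 μM group well above its 2 partners. The call was lost in 4 of 19 alternatives (adjusted p 0.00815 to 0.130 over them), among them the fits without DMSO replicate 1 (0.63) and without DMSO replicate 2 (0.71). Without replicate 3 of the 1.0 μM group it was 0.48 and passed (adjusted p = 0.0267 from limma).

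Snora69, inside the ribosomal protein gene Rpl39, read 10.31, 9.94 and 10.44 in DMSO, 10.31, 10.31 and 10.40 at 0.1 μM, and 10.60, 10.54 and 10.86 at 1.0 μM. The 1.0 μM arrays lay above all others, while the 0.1 μM arrays lay within the range of DMSO. The change of 0.44 (adjusted p in limma = 0.0266, standard error 0.12) was 0.29 without DMSO replicate 2, which still passed (adjusted p = 0.0454), and became 0.34 without replicate 3 of the 1.0 μM group and then missed the threshold (adjusted p = 0.0796, with 0.00576 to 0.131 over its alternatives). Snord23, inside Nop53, a gene for ribosome assembly, had the smallest SD of all tested members in both DMSO (0.04) and 1.0 μM (0.05). It read 9.85, 9.80 and 9.77 in DMSO, 9.97, 9.72 and 9.92 at 0.1 μM, and 10.02, 10.04 and 10.11 at 1.0 μM. Its change was 0.25 (standard error 0.07, adjusted p = 0.0202 from limma). It missed the threshold without DMSO replicate 3 (0.23) and without replicate 2 (0.26) or 3 (0.22) of the 1.0 μM group, with an adjusted p of 0.00766 to 0.0775 over its alternatives.

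Snord52 measured 9.24, 9.01 and 9.22 in DMSO, 9.05, 9.08 and 9.09 at 0.1 μM, and 9.57, 9.22 and 9.57 at 1.0 μM. One array of the 1.0 μM group lay inside the range of the DMSO arrays. The change of 0.30 (adjusted p in limma = 0.0479, standard error 0.10) was lost in 11 of 19 alternatives (adjusted p 0.00745 to 0.315), among them the fits without DMSO replicate 2 (0.22) or 3 (0.33), without replicate 1 (0.24) or 3 (0.24) of the 1.0 μM group, and without any 1 of the 0.1 μM arrays (0.30). Snord15a, inside Rps3, read 8.96, 9.29 and 9.06 in DMSO, 8.89, 8.96 and 8.96 at 0.1 μM, and 8.70, 8.65 and 8.96 at 1.0 μM, and its groups met at 8.96. The call was lost in 6 of 19 alternatives (adjusted p 0.00335 to 0.145), among them the fits without DMSO replicate 2 (-0.24) or 3 (-0.35) and without replicate 1 (-0.30) or 2 (-0.27) of the 1.0 μM group.

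**Figure D2:**
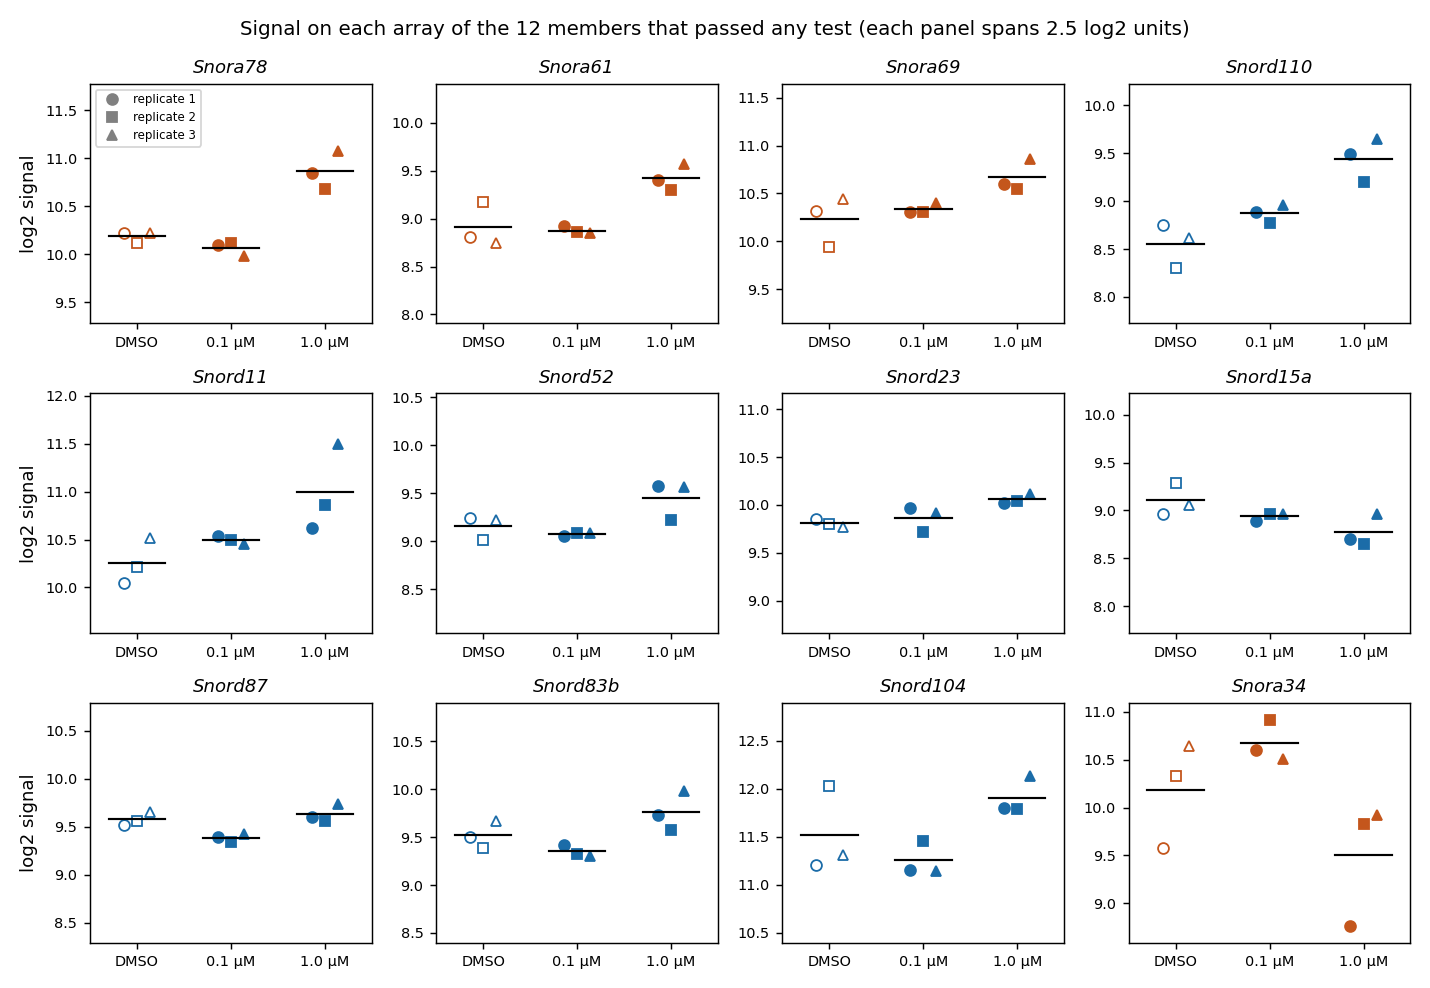
Log2 signal (y axis) on each array of the 12 members that passed any test, by group (x axis: DMSO, then 5-ITu at 0.1 μM, then at 1.0 μM; 3 arrays each). Marker shape is the replicate number, open markers are DMSO, black bars are group means and every panel spans 2.5 log2 units; Snora78, Snora61, Snora69, Snord110, Snord11 and Snord23 at 1.0 μM lie wholly above DMSO, and Snora34 at 1.0 μM lies below 0.1 μM.

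A simpler reading is whether the 3 arrays of 1.0 μM 5-ITu and the 3 of DMSO overlap at all. In 6 of the 53 members every 1.0 μM array was higher than every DMSO array (11.3%, beside 18.6% of all tested probe sets), and in 0 every array was lower (beside 20.0%). At 0.1 μM the groups did not overlap in 5 members that were higher (beside 17.8%) and in 4 that were lower (beside 15.8%). These 4 counts are descriptions, and the differences from the background were not tested.

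The study's own fold threshold, over 1.5-fold, here with an unadjusted limma p under 0.05, was passed at 1.0 μM by 3 members that were higher, Snord110, Snord11 and Snora78 (beside 1.05% of all tested probe sets), and by 0 that were lower (beside 1.92%). At 0.1 μM it was passed by 0 that were higher (beside 0.575%) and by 1 that was lower, Snora31 (beside 0.131%). Snora31, inside Tpt1, read 8.50, 9.63 and 8.85 in DMSO, 8.25, 8.46 and 8.48 at 0.1 μM, and 8.38, 8.47 and 8.74 at 1.0 μM, so its size rests on 1 bright DMSO array.

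At 0.1 μM no member passed the adjusted threshold: 0 of 53 rose (beside 4.66% of all tested probe sets) and 0 fell (beside 1.56%), with limma. An unadjusted limma p under 0.05 was found for 4 of the 53, beside 2486 of the 9911 tested probe sets. These 4 were 2 higher, Snord99 and Snord110, and 2 lower, Snord87 and Snora31. With the replicate number held as a block in the fit, Snord99 and Snord110 passed as higher and Snord87 as lower. The ordinary one-way F named 4 members that differed over the 3 groups. By the sign of the difference at 0.1 μM, which this F does not test, Snord110 was higher and Snora61, Snora78 and Snord87 were lower. With 1 array left out, 3 members passed limma's test at this dose: Snord42b was lower without DMSO replicate 2 (-0.33, adjusted p = 0.0360), Snord99 higher without DMSO replicate 3 (0.50, adjusted p = 0.0217) and Snord87 lower without replicate 3 of the 1.0 μM group (-0.19, adjusted p = 0.0458). The 95% interval of the change at 0.1 μM lay within 1.5-fold for 34 of the 53 and reached past it for 19, so for these 19 a change of that size lies within the error. At 1.0 μM the same held for 32 and 13 of the 45 members that did not pass.

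Between the doses, 7 members were higher at 1.0 μM than at 0.1 μM (13.2%, beside 12.3% of all tested probe sets) and 1 was lower (beside 17.4%). Snora78, Snord110, Snora61 and Snord52 passed here too, although Snord52 (0.38) missed the threshold without any 1 of the 0.1 μM arrays (0.37, 0.38 and 0.38) or without replicate 1 (0.32) or 3 (0.32) of the 1.0 μM group. The others were Snord104, in the noncoding gene Gm36220, Snord83b, in the ribosomal protein gene Rpl3, and Snord87, inside the spans of both Mcmdc2 and Snhg6. Snord87 had 9.52, 9.56 and 9.65 in DMSO, 9.39, 9.34 and 9.42 at 0.1 μM, and 9.60, 9.56 and 9.73 at 1.0 μM. It was lowest at the low dose, without overlap, and differed between the doses by 0.25 (adjusted p = 0.0122 from limma; 0.23 and 0.0507 without replicate 2 of the 0.1 μM group), while its change at 1.0 μM against DMSO was 0.05 (adjusted p = 0.532).

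Snord83b, with 9.50, 9.38 and 9.67 in DMSO, 9.42, 9.32 and 9.31 at 0.1 μM, and 9.73, 9.58 and 9.99 at 1.0 μM, had the same order of its group means. Its difference of 0.41 (adjusted p = 0.0155 from limma) was 0.40 without replicate 2 and 0.39 without replicate 3 of the 0.1 μM group, and then missed the threshold (adjusted p 0.0533 and 0.0571). Snord104 read 11.20, 12.03 and 11.32 in DMSO, 11.16, 11.46 and 11.15 at 0.1 μM, and 11.80, 11.79 and 12.14 at 1.0 μM. Its difference of 0.65 between the doses (adjusted p = 0.0344 from limma) was lost in 6 of 19 alternatives (adjusted p 0.00157 to 0.178), among them the fits without replicate 1 (0.61) or 3 (0.60) of the 0.1 μM group and without replicate 1 (0.71), 2 (0.71) or 3 (0.54) of the 1.0 μM group. One DMSO array was as bright as the 1.0 μM arrays.

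Snora34, inside Kansl2, was the 1 member lower at 1.0 μM than at 0.1 μM. It had 9.57, 10.33 and 10.64 in DMSO, 10.60, 10.92 and 10.51 at 0.1 μM, and 8.76, 9.83 and 9.92 at 1.0 μM. Replicate 1 was the lowest array in both the 1.0 μM and the DMSO group. The difference of -1.17 (adjusted p = 0.0255 from limma) was -0.80 without replicate 1 of the 1.0 μM group (adjusted p = 0.0634) and -1.21, -1.05 and -1.26 without replicates 1, 2 and 3 of the 0.1 μM group (adjusted p 0.0630, 0.0875 and 0.0534). The change at 1.0 μM against DMSO did not pass (-0.68, adjusted p = 0.153), but did without DMSO replicate 1 (-0.98, adjusted p = 0.0460), and it was -0.30 without replicate 1 of the 1.0 μM group (adjusted p = 0.444 from limma, these being the lowest and highest p with 1 array left out). Over the 3 groups together the moderated F passed for 10 members (18.9%), beside 35.3% of all tested probe sets.

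The medians of box C/D and box H/ACA members lay close together at both doses. At 1.0 μM the median change was 0.05 over the 31 tested Snord probe sets (quartiles -0.11 and 0.20) and -0.01 over the 18 Snora probe sets (quartiles -0.17 and 0.08), beside -0.01 over all tested probe sets (quartiles -0.13 and 0.11). At 0.1 μM the medians were -0.07 for Snord and -0.07 for Snora, beside 0.00 over all. Of the Snord probe sets 19 were above and 12 below 0 at 1.0 μM, and of the Snora 8 were above and 10 below. Calls at this dose were made in 5 of 31 Snord (4 higher) and in 3 of 18 Snora (3 higher). Taken array by array against the DMSO means, the Snord median was -0.02, -0.09 and 0.23 at 1.0 μM, and the Snora median was -0.21, -0.01 and 0.18. The arrays of the group thus differed more from each other than the classes did. No p is given for a class, since its members share arrays.

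The 4 Cajal body probe sets gave no call. Scarna2, which guides methylation of a spliceosomal RNA, changed by 0.17 at 1.0 μM (95% interval -0.01 to 0.35). The 2 probe sets of Scarna17 changed by 0.23 and 0.24, with nearly the same profile over the arrays, and may read the same RNA. Scarna6 had 8.52, 9.17 and 9.06 in DMSO, 9.35, 9.53 and 9.25 at 0.1 μM, and 8.34, 9.21 and 8.65 at 1.0 μM, with the 0.1 μM arrays above all others and replicate 1 lowest in the other groups.

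The members varied between replicates far more than the tested probe sets as a whole. The spread of other short RNAs was not summarised, so this trait is not shown to be particular to members. The SD of the log2 signal over 3 arrays had, for members, a median of 0.234 in the DMSO group, 0.0728 in the 0.1 μM group and 0.200 in the 1.0 μM group, against 0.0859, 0.0424 and 0.0753 for all tested probe sets, a ratio of 2.73, 1.72 and 2.66. Of the 53 members, 33 at 1.0 μM and 31 in DMSO had an SD above the 90th percentile of all tested probe sets. The H/ACA members spread more than the C/D members in each group: the median SD was 0.326 and 0.203 in DMSO, 0.0937 and 0.0712 at 0.1 μM, and 0.250 and 0.167 at 1.0 μM. The arrays at 0.1 μM were the closest to each other, for members and for all probe sets.

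**Figure D3:**
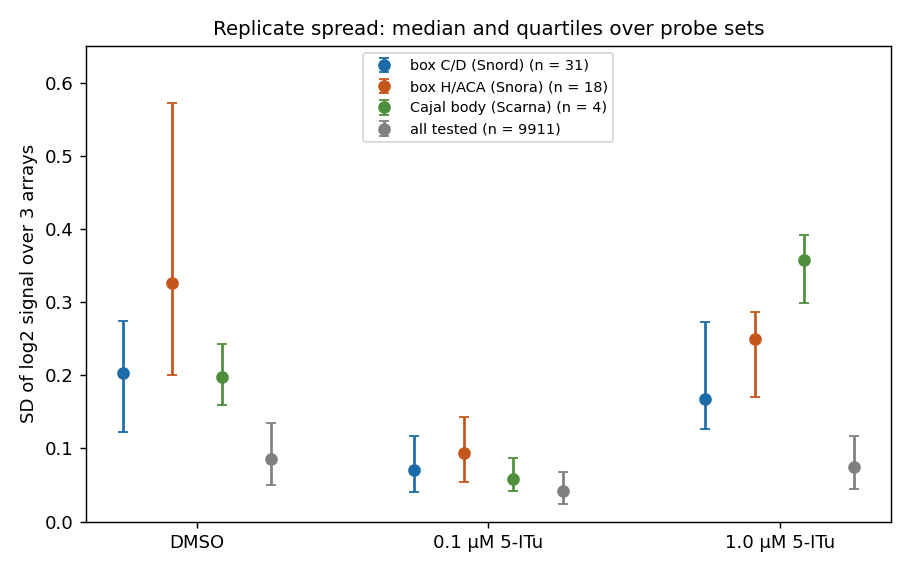
SD of the log2 signal over the 3 arrays of a group (y axis) for each group (x axis), as the median (point) and quartiles (bars) over the 31 Snord, 18 Snora and 4 Scarna probe sets and over all 9911 tested. The members' medians lie above those of all tested probe sets in every group, and the lowest spreads are at 0.1 μM.

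This spread was shared between members. Replicate 3 of the 1.0 μM group was the highest array of its group for 46 of the 53 members (86.8%), and the lowest for 0, whereas it was the highest for 32.9% of all tested probe sets. In DMSO, replicate 3 was the highest for 26 members (49.1%, beside 31.3% of all tested probe sets). It was the lowest there for 3 (5.66%, beside 24.97%). At 0.1 μM, replicate 3 was again the highest for 26 members (49.1%, beside 29.4%), and it was the lowest for 13 (24.5%, beside 30.6%). Replicate 3 was thus the array most often highest for members in every group. Among 70 other short-RNA probe sets, mostly microRNA genes, replicate 3 was the highest for 39 (55.7%) at 1.0 μM and for 37 (52.9%) in DMSO. At 0.1 μM it was the highest for only 17 of the 70 (24.3%), while replicate 2 was the highest for 33 (47.1%). Without this array 4 members rose at 1.0 μM, Snora78, Snora61, Snord11 and Snord110, and 5 fell, Snord15a, Snora7a, Snord35a, Snord37 and Snord71. The shares of all tested probe sets that passed in that fit were not counted, so these counts have no background beside them. The part of short-RNA recovery in the high signals of replicate 3 was not tested.

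DMSO replicate 2 was apart in another way. It was more than 0.5 above both other DMSO arrays for 8 members (15.1%, beside 0.262% of all tested probe sets): Snord13, Snora16a, Snora44, Snora31, Snora73a, Snora73b, Snord35b and Snord104. The gap of 0.5 was chosen after the values were seen, and probe sets with a wider spread, as members have, pass it more readily. Snora73a and Snora73b, which act in the cleavage of the ribosomal precursor rather than in its modification, lie in Snhg3 and are related copies, so their probe sets may share signal. Snora73a read 10.25, 11.53 and 10.70 in DMSO, 10.69, 10.89 and 10.69 at 0.1 μM, and 10.47, 10.61 and 10.94 at 1.0 μM. Snora16a read 9.76, 11.23 and 10.28 in DMSO, 10.19, 10.34 and 10.13 at 0.1 μM, and 9.79, 10.04 and 10.30 at 1.0 μM. In both, 1 DMSO array was brighter than all 8 others. DMSO replicate 1 stood apart as well, more than 0.5 below both other DMSO arrays for 6 members (11.3%, beside 0.585% of all tested probe sets): Scarna6, Snord89, Snora34, Snora16a, Snora44 and Snord13. Without it Snora34 (-0.98) and Snora31 (-0.71) passed as lower at 1.0 μM, and Snord11 (0.63) no longer passed.

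Snord13 had the widest spread in DMSO. It is a C/D RNA with its own promoter, needed for an acetylation of the small ribosomal subunit's RNA, and RefSeq places no gene around it. Its signals were 10.10, 13.04 and 10.63 in DMSO, 10.59, 10.73 and 10.60 at 0.1 μM, and 12.19, 12.07 and 12.77 at 1.0 μM. The 1.0 μM arrays were above all others but DMSO replicate 2, which was the brightest of the 9. With all arrays the change at 1.0 μM was 1.09 (95% interval -0.26 to 2.44, adjusted p = 0.207 from limma). Without DMSO replicate 2 it was 1.98 (adjusted p = 0.000658, with 0.000658 to 0.528 over the 9 fits that leave out 1 array). Snord104 (0.65) then passed as higher and Snord42b (-0.27) as lower, while Snord11, Snord52 and Snord15a no longer did.

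**Figure D4:**
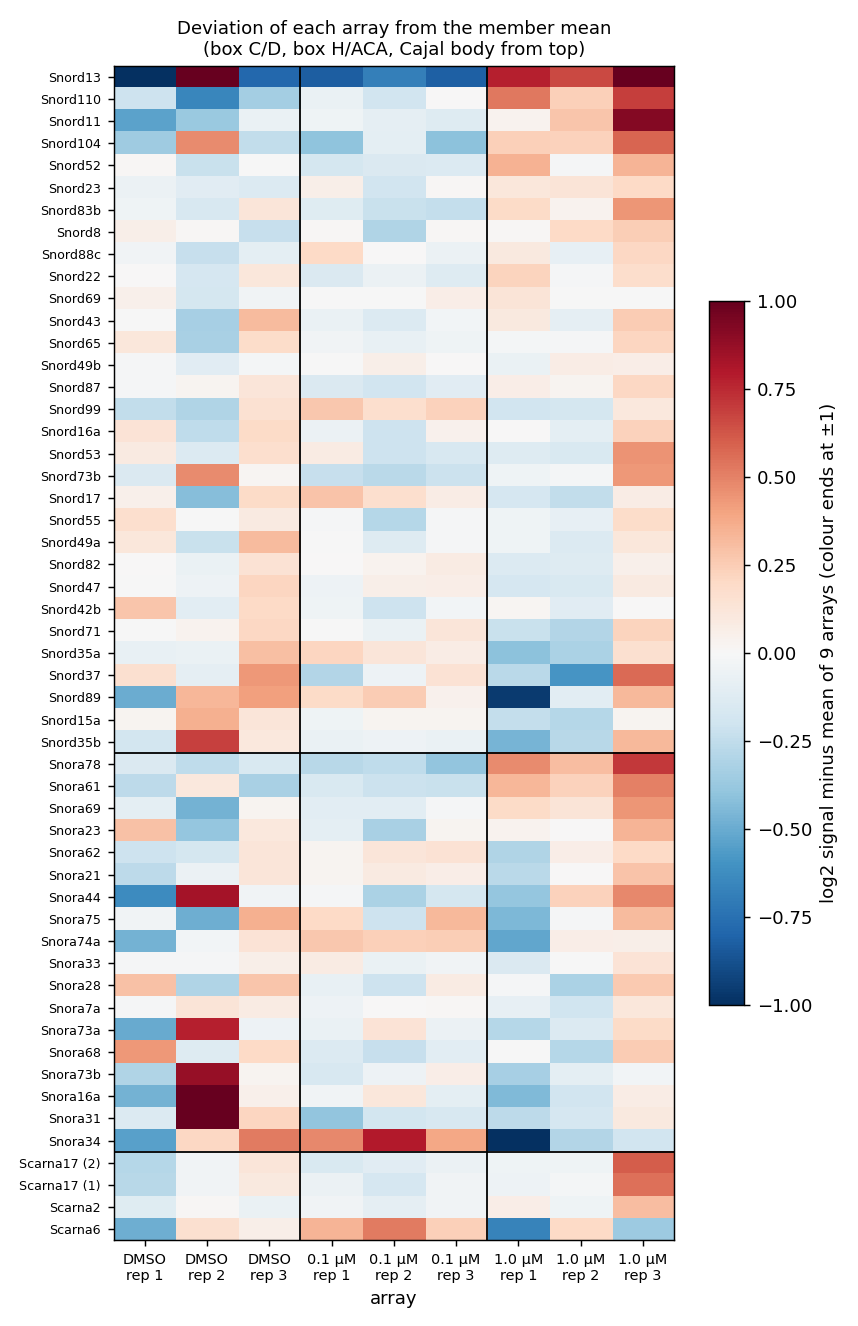
Deviation of the log2 signal on each of the 9 arrays (columns, by group and replicate) from the mean of the member's 9 arrays (rows: 53 tested probe sets, box C/D, then box H/ACA, then Cajal body, each ordered by the change at 1.0 μM). Red is above and blue below the mean, with colours ending at ±1; the column of replicate 3 at 1.0 μM is mostly red, and DMSO replicate 2 is deep red for Snord13, Snora16a, Snora31, Snora44, Snora73a and Snora73b.

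Since most members are made from introns, each was set beside the gene around it. By RefSeq, 51 of the 54 genes lie inside at least 1 other gene (5 of them inside 2), and Snord13, Snord89 and Scarna2 lie inside none. The table gives no strand for these genes, so a spanning gene is a likely host and not a certain one. For 39 pairs both the member and the host had a tested probe set (31 hosts). Where a host had several, only the brightest was read. At 1.0 μM, 4 of these 31 hosts rose (12.9%, beside 13.4% of all tested probe sets) and 6 fell (19.4%, beside 14.3%), and at 0.1 μM 1, Eif5, fell (3.23%, beside 1.56%).

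Pairs that rose together at 1.0 μM numbered 3. Nop56, the host of Snord110 (brightest of 3 tested probe sets), measured 12.11, 12.02 and 12.13 in DMSO, 12.07, 12.07 and 12.09 at 0.1 μM, and 12.35, 12.26 and 12.37 at 1.0 μM. Its change was 0.24 (SE 0.05, adjusted p = 0.00603 from limma) beside 0.89 for its snoRNA. Snhg12 had 9.10, 8.85 and 9.19 in DMSO, 9.16, 9.10 and 9.18 at 0.1 μM, and 9.60, 9.34 and 9.75 at 1.0 μM, a change of 0.52 (standard error 0.11, adjusted p = 0.00732) beside 0.51 for Snora61. The noncoding gene 1110038B12Rik had 12.21, 12.01 and 12.10 in DMSO, 12.12, 12.04 and 12.10 at 0.1 μM, and 12.52, 12.48 and 12.62 at 1.0 μM, a change of 0.44 (adjusted p = 0.00108 from limma) beside 0.30 for Snord52. In all 3 hosts every 1.0 μM array was above every DMSO array. Rps3 and Snord15a fell together, by 0.18 and 0.33. Probe sets that name another snoRNA with Rps3 or Nop56 are not members and may read either gene. At 1.0 μM that of Snord15b with Rps3 changed by 0.13 and that of Snord57 with Nop56 by 0.08, without passing.

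The sequences around the start of the 3 hosts that rose with a member are shown, since these are where transcription of host and snoRNA would begin. They are RefSeq windows of GRCm38.p6, from 100 bases before to 30 bases after the start the table gives, 5′ to 3′ on the gene's strand. Capitals mark the longest run of C and T that touches the 10 bases on either side of the start, a feature known as background from genes of the translation machinery. Nop56 lies at chr2:130274312-130274441 (plus strand), Snhg12 at chr4:132308578-132308707 (plus strand) and 1110038B12Rik at chr17:34952442-34952571 (minus strand, the more upstream of 2 annotated starts).
Nop56: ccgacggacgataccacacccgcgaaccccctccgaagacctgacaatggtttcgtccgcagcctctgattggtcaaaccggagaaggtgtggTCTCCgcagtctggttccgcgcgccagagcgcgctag
Snhg12: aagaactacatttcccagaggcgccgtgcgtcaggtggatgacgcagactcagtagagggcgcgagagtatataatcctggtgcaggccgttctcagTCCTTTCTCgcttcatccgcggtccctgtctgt
1110038B12Rik: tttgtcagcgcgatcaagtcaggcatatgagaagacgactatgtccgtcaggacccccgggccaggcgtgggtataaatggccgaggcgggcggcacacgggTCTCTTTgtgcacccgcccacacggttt

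The run is 5 bases in Nop56, 9 in Snhg12 and 7 in 1110038B12Rik. A run of at least 7 was found near the start of 12 of the 34 host genes with a window (35.3%) and of 22.5% of the 27025 genes in the table. The motif CACGTG, the same on both strands, was found in the 300-base window of 8 of the 34 hosts (23.5%) and of 8.09% of all genes, and in none of the 3 shown. A match describes the letters only.

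Snord11 and Snord23 passed beside hosts that did not. Nop58, which encodes the partner of Nop56 in C/D particles and hosts Snord11, had 11.26, 11.31 and 11.30 in DMSO, 11.14, 11.26 and 11.19 at 0.1 μM, and 11.28, 11.26 and 11.24 at 1.0 μM, a change of -0.03 (standard error 0.05) beside 0.73 for Snord11. Nop53 changed by 0.10 (adjusted p = 0.289 from limma) beside 0.25 for Snord23. In 10 pairs the host passed at 1.0 μM and the member did not. In 23 pairs neither passed, and in 0 did both pass in opposite directions.

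The members inside Snhg12 had different estimates, and the differences between them were not tested. At 1.0 μM Snora61 changed by 0.51, Snora44 by 0.05 (95% interval -0.68 to 0.79), Snord99 by 0.05 (95% interval -0.22 to 0.31) and Snora16a by -0.38 (95% interval -1.05 to 0.29). Snord99 read 10.22, 10.16 and 10.61 in DMSO, 10.74, 10.63 and 10.69 at 0.1 μM, and 10.27, 10.29 and 10.57 at 1.0 μM, so that it was highest at the low dose. Snora16a and Snora44 had DMSO replicate 2 far above the others. The interval of Snora44 includes the host's estimate of 0.52 (standard error 0.11), and those of Snord99 and Snora16a end below that estimate. The host's own error is not counted in this. The noncoding gene 2410006H16Rik spans Snord49a, Snord49b and Snord65, which changed by -0.09, 0.07 and 0.07 beside 0.20 for the host (adjusted p = 0.0708 from limma), and none of these passed.

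Rps12, a ribosomal protein gene with Snora33 inside it, had 12.21, 12.15 and 12.25 in DMSO, 12.11, 12.21 and 12.16 at 0.1 μM, and 11.77, 11.80 and 11.80 at 1.0 μM. This probe set, the brightest of 8 tested for Rps12, fell by 0.42 (adjusted p in limma = 0.000331, standard error 0.05), while Snora33 changed by -0.02 (95% interval -0.18 to 0.15). The other probe sets of Rps12 are not given here. The other hosts that fell were Ncl, Rpl23a, Eif5, Ipo7 and Rps3, and Snhg4 rose. Of the members inside them Snord15a alone passed. Across the 39 pairs the changes at 1.0 μM had a Pearson r of 0.20, a description over pairs that share arrays and in part hosts.

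**Figure D5:**
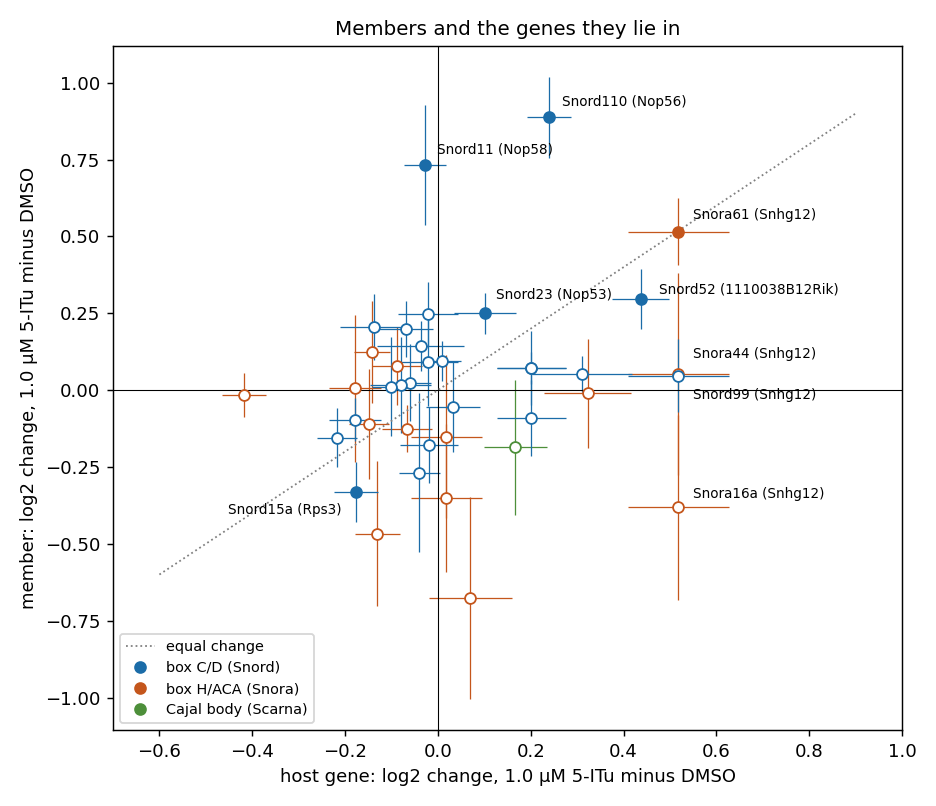
Change at 1.0 μM 5-ITu relative to DMSO (log2) of a member (y axis) against the gene around it (x axis) for the 39 pairs tested, with bars of 1 standard error. Filled points are members that passed, and the dotted line marks equal change; Snora61 lies on the line with Snhg12 while Snora16a, Snora44 and Snord99 lie below it, and Snord110 and Snord11 lie above it.

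Of 27 tested genes for proteins that make, carry and trim these RNAs, 5 rose (18.5%, beside 13.4% of all tested probe sets) and 2 fell (7.41%, beside 14.3%) at 1.0 μM. Of the 4 C/D core proteins 3 were tested, and Nop56 rose at 1.0 μM while Nop58 and Snu13 did not pass. The changes of the 4 H/ACA core proteins (Dkc1, Nhp2, Nop10 and Gar1) ran from -0.05 to 0.22 without passing. The highest, Gar1, with 10.04, 10.14 and 9.79 at 1.0 μM against 9.77, 9.92 and 9.63 in DMSO, changed by 0.22 (adjusted p = 0.125 from limma). Of 9 tested assembly factors 1 rose at 1.0 μM, Shq1, the chaperone of dyskerin (0.33, adjusted p = 0.0464), and 1 fell, Pih1d1, which belongs to the R2TP chaperone complex (-0.40, adjusted p = 0.0352). Znhit6, which acts in C/D assembly, was the 1 that fell at 0.1 μM (-0.24, adjusted p = 0.0432 from limma).

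Among 11 tested genes for Cajal bodies, transport and RNA ends, 3 rose at 1.0 μM (27.3%, beside 13.4% of all tested probe sets) and 1 fell (9.09%, beside 14.3%). Ncbp2, the cap-binding subunit of the nuclear cap-binding complex, had 10.05, 10.02 and 9.78 at 1.0 μM against 9.59, 9.42 and 9.40 in DMSO (0.48, adjusted p = 0.002). Wrap53, which brings small Cajal body RNAs and telomerase RNA to Cajal bodies, had 9.93, 9.65 and 9.85 at 1.0 μM against 9.50, 9.35 and 9.30 in DMSO (0.43, adjusted p = 0.00427 from limma). Parn, which trims the ends of H/ACA RNAs, rose by 0.16 (adjusted p = 0.0474) and Dis3, a nuclease of the exosome, fell by 0.17 (adjusted p = 0.0468 from limma).

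The 16 noncoding host genes on the list had a median change of 0.18 at 1.0 μM, beside -0.01 over all tested probe sets, and 5 rose (31.2%, beside 13.4%): Snhg12, Zfas1, Snhg5, Snhg20 and Snhg4. At 0.1 μM the 16 changed by -0.46 to 0.21 without passing. Rian fell at 1.0 μM, the 1 of the 16 to do so. Rian is an imprinted RNA with a long array of C/D snoRNAs in its introns, and it had 10.22, 10.36 and 10.72 at 1.0 μM, against 11.41, 11.06 and 11.25 in DMSO (-0.81, adjusted p = 0.00159 from limma). None of the 54 members lies in Rian.

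Of the genes with a deposited probe set, RefSeq types 3 inside Rian as snoRNAs, whose symbols do not follow the family's naming. AF357355, named in the study, read 10.02, 9.63 and 9.90 in DMSO, 9.27, 9.10 and 9.14 at 0.1 μM, and 9.04, 8.91 and 9.23 at 1.0 μM. It fell at both doses, by 0.79 at 1.0 μM (adjusted p = 0.000932) and by 0.68 at 0.1 μM (adjusted p = 0.00908 from limma). DQ267102 fell by 0.79 at 1.0 μM (adjusted p = 0.00235) and changed by -0.24 at 0.1 μM (adjusted p = 0.281), and AF357425 changed by -0.22 at 1.0 μM and -0.26 at 0.1 μM without passing. The list of 52 other short RNAs, mainly microRNA genes, had 8 that rose (15.4%, beside 13.4% of all tested probe sets) and 9 that fell (17.3%, beside 14.3%) at 1.0 μM.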

How the data were processed

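The authors hybridised RNA of 3 biological replicates a group to Affymetrix Mouse Gene 2.0 ST arrays and summarised probes with RMA in Expression Console (version 1.3 in the methods); the deposited values are log2 signals, used as normalized. The methods set a background threshold, a log2 signal of 8.46, which 9469 to 9780 probe sets exceeded on each array, so the precision is limited by 3 arrays a group. For the 9911 probe sets that passed it on 3 or more of 9 arrays, 1 linear model over the 3 groups was fitted (R 4.3.3; limma 3.58.1, moderated with eBayes), and p-values were adjusted by Benjamini-Hochberg over all of them, with a threshold of 0.05. The steps were tested on simulated data with independent noise for each probe set and array. That simulation held no array effect shared between probe sets, so it does not bear on the shared spread reported above. The authors' 1.5-fold threshold was also counted, without their one-way test, which was run as an alternative.

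Members, gene lists and tests were chosen with earlier results of these data known. Named genes are members that passed any test, the 5 brightest and 5 dimmest, members of hosts with at least 3, tested hosts (brightest probe set with 1 symbol), and up to 4 genes of each pathway list. Others named were chosen after their values were seen. Hosts are RefSeq genes (GRCm38.p6) spanning a member; the plan asked for the same strand, which the table does not give. Coordinates of members are not printed because the platform annotation names no build. Sequences of the snoRNAs were not used here.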

Additional observations from a re-analysis of the deposited data

How the results depend on the processing

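Calls of Snora78, Snord110 and Snora61 held under every alternative run, and no called member changed sign in any. Other calls rest on few arrays and on the shared variance, and arrays limit precision to 3 a group. For the alternatives the shares of all tested probe sets were not counted. The counts of members below therefore have no background beside them.

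The one-way F is 1 test over the 3 groups. Its counts here sort the 4 members it named by the sign of each difference, and test no single dose. Against DMSO at 0.1 μM, the counts of members higher and lower were 0 and 0. They became 0 and 2 with array weights, 0 and 1 at an adjusted p under 0.1, and by sign 1 and 3 with the one-way F. At 1.0 μM, 7 and 1 became 4 and 0 with only the 2 groups compared, 4 and 0 with the one-way F, and 7 and 9 with array weights. Between the doses, 7 and 1 became 7 and 2 with no filter or with a trended robust prior, 10 and 4 with only the 2 groups compared, 12 and 7 with array weights, 4 and 0 with the one-way F, and 12 and 3 at an adjusted p under 0.1. The F count of 10 became 23 with array weights and 4 with the one-way F. Members past 1.5-fold at 0.1 μM, 1 in the main fit, numbered 2 with no filter and 0 with only members above background on all 9 arrays, with the 2 groups compared or with array weights. The box H/ACA median at 0.1 μM was -0.0525 with no filter. The cause of these shifts was not tested.

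Leaving out each array in turn, members higher ranged from 0 to 1 at 0.1 μM, 4 to 7 at 1.0 μM and 4 to 11 between the doses, and members lower from 0 to 1, 0 to 5 and 0 to 4. The F count ranged from 4 to 11, and was 4 without any 1 of the 0.1 μM arrays. Members past 1.5-fold ranged from 0 to 1 at 0.1 μM and from 3 to 7 at 1.0 μM. The box C/D median ranged from -0.0916 to -0.000273 at 0.1 μM and from -0.0716 to 0.0895 at 1.0 μM, and the box H/ACA median from -0.0758 to 0.0281 and from -0.155 to 0.112. At 1.0 μM the counts were 4 and 5 without replicate 3 of that group, 6 and 3 without DMSO replicate 1, and 5 and 0 without DMSO replicate 3.

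When the fit held the replicate number as a block, 2 members (Snord110 and Snord99) were higher and 1 (Snord87) lower at 0.1 μM, 8 and 2 at 1.0 μM, 11 and 4 between the doses, and 14 differed over the groups. Same-numbered arrays deviated together at r over 0.1 in 4 of 9 pairs (-0.02 to 0.51), and 8 of 9 arrays correlated best with an array of their own number. The main fit held no block because the methods name none. Whether the numbers pair the samples was not tested.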

Other observations

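Probe sets that name a snoRNA beside another gene were outside the rule, and their signal may come from either gene. Of these 38, 16 name Gm26504 with Snord116l1 and Snord116l2, the C/D RNAs of the imprinted Prader-Willi region, and a further 15 name Gm26504 alone. RefSeq places Gm26504 inside Snhg14. Over these 31 probe sets the log2 signal on 1 array differed by at most 0.11, so they amount to 1 measurement repeated. It was -0.85 to -0.84 at 1.0 μM relative to DMSO (highest adjusted p = 0.000410 from limma) and -0.28 to -0.25 at 0.1 μM (lowest adjusted p = 0.127). Snhg14 itself changed by -0.05 at 1.0 μM (adjusted p = 0.652).

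Of the other 22 such probe sets, 3 rose at 1.0 μM. Snord12 with its host Zfas1 changed by 0.73 (adjusted p = 0.0127), Snora24 with Snhg8 by 0.43 (adjusted p = 0.00317) and Snord14e with Hspa8 by 0.42 (adjusted p = 0.00661 from limma). The 2 that fell were Snora5c with Tbrg4 (-0.23, adjusted p = 0.0342) and Snord33 with Rpl13a and Mir5121 (-0.34, adjusted p = 0.0329).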
